A study of Mus musculus with 2 samples.

Results

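The genes described here are 10 members of the semaphorin, plexin and Slit-Robo families: the ligands Sema3a, Sema3c, Sema3d, Slit2 and Slit3, and the receptors Plxna2, Plxnd1, Robo1, Robo2 and Robo4. They were chosen by name, and all 10 were found among the 22401 features of the deposited matrices. Their transcripts were counted in single cells from whole mouse hearts at E11.5, a stage of embryonic development, in 2 libraries, 1 per genotype. The control hearts were Hand2fx/+ R26RmTmG/wt without Cre, and the mutant hearts, H2CKO, were Nfatc1Cre/wt Hand2fx/fx R26RmTmG/wt. Both libraries therefore carried at least 1 floxed Hand2 allele and 1 copy of the mTmG reporter, which switches from membrane Tomato to membrane GFP where Cre has acted. Cre expressed from Nfatc1 is active in endocardium, the endothelium that lines the heart chambers, and in the cushion mesenchyme that arises from it, so that the deletion targets these lineages. Floxed males with Cre were mated to floxed females with the reporter, Cre status was read from GFP fluorescence, and Hand2 alleles were genotyped from yolk sac DNA. How many embryos went into each library is not in the labels. With 1 library per genotype there is no replicate, so no p-value is given, and every interval below is a 95% interval for counting error only.

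Semaphorins of class 3 are secreted ligands. They act through plexins, often with a neuropilin as the co-receptor that binds the ligand, and steer growing axons, migrating neural crest and sprouting vessels. Slits are secreted ligands of the Robo receptors, known for repelling axons at the midline. In the heart, Sema3c with plexins A2 and D1 is known for its part in outflow tract septation, Sema3d for patterning of veins and innervation, and Slit-Robo signalling for formation of the pericardium, valves and venous inflow. Robo4 is the Robo of endothelial cells. HAND2, the transcription factor deleted here, belongs to the basic helix-loop-helix family, whose members bind E-boxes, the letters CANNTG.

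Most of these genes are very long. In the GENCODE vM21 annotation of GRCm38, Sema3d (chr5:12383385-12588948), Sema3a (chr5:13125414-13602565), Sema3c (chr5:17574281-17730268) and Slit2 (chr5:47983138-48307733) lie on the plus strand of chromosome 5. No other counted feature lies in the 536 kb between Sema3d and Sema3a, and 18 lie in the 3972 kb between Sema3a and Sema3c. Robo1 (chr16:72308306-73046095, plus strand) and Robo2 (chr16:73891839-74411825, minus strand) are also neighbours, with 846 kb and no counted feature between them. Plxna2 is at chr1:194618218-194816869, Plxnd1 at chr6:115954811-115995005 on the minus strand, Slit3 at chr11:35121224-35708507 and Robo4 at chr9:37401897-37415115. The span from first to last base was 738 kb for Robo1, 587 kb for Slit3 and 520.0 kb for Robo2, against 13.2 kb for Robo4 and 40.2 kb for Plxnd1. RefSeq has 2 further starts of Robo2 upstream of this span, so that the span used here is a lower limit for it. The median span of the members was 265 kb and that of all features 16.4 kb. Spans of 150 kb or more were found for 8 of the 10 members but for 6.55% of all features.

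RefSeq promoters (GRCm38.p6, 250 bases before to 50 bases after an annotated start) were found for all 10 members, 12 sequences in all because Robo2 has 3 starts. At least 1 E-box lay in the promoters of 6 members, and 72.3% of all 32851 promoters of this length hold one. CATCTG, 1 form of the E-box, was found in the promoter of 1 member on either strand and in 17.2% of all promoters. The CANNTG motif reads the same on both strands and contains the CATCTG form. The promoters of 4 genes are shown 5′ to 3′ on the gene's strand, with every CANNTG in capitals. They are Sema3c (chr5:17574566-17574865, plus strand), high in outflow-tract-like cardiomyocytes; Sema3d (chr5:12382916-12383215, plus strand), high in epicardial-like cells; and Plxnd1 (chr6:115994956-115995255, minus strand) and Robo4 (chr9:37401722-37402021, plus strand), high in endothelial-like cells.
Sema3c: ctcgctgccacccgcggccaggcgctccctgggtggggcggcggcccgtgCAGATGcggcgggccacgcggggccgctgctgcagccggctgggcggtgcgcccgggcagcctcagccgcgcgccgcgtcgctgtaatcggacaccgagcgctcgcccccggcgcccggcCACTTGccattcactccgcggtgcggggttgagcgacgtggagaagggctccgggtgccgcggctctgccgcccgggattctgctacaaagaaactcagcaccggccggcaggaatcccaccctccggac
Sema3d: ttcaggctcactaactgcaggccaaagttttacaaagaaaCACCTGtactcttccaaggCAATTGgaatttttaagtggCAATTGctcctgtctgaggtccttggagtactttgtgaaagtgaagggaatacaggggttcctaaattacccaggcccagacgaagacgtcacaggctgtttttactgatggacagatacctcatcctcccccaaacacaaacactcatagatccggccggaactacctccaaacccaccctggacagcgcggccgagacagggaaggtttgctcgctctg
Plxnd1: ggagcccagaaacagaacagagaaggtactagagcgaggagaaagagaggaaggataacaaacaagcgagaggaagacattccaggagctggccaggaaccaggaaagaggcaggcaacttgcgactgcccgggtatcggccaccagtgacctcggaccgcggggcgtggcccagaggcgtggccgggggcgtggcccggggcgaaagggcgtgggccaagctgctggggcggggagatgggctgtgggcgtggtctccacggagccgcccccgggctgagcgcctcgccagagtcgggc
Robo4: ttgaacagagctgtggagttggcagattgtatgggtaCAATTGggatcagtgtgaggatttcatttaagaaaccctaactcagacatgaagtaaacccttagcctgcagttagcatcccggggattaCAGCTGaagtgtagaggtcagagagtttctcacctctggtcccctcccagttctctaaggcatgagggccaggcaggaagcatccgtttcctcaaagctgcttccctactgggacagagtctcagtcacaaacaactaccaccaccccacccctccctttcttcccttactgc
The Sema3c window held 2 E-boxes, of which the first, CAGATG, is CATCTG on the other strand. The Sema3d window held 3 and the Robo4 window 2, while none was found in that of Plxnd1. These matches describe the letters of the windows, not sites at which a factor was measured.

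The control library held 195825720 UMIs in 14114 barcodes and the H2CKO library 201477256 in 13885. After filtering, 9054 control cells (median 16342 UMIs) and 11170 H2CKO cells (median 13290 UMIs) were kept, with 28 barcode sequences in common. They formed 19 clusters, built without the guidance genes, and 17 were named by markers: endothelial-like (398 control and 741 H2CKO cells), mesenchymal-like (1628 and 1053), epicardial-like (728 and 210), cardiomyocyte-like (3296 and 4030), white blood cell-like (80 and 112) and erythroid-like (2737 and 4848). Levels are given as UMIs of a gene per 1000000 UMIs of the class (CPM). Hand2 stood at 227 CPM in control and 11.1 CPM in H2CKO endothelial-like cells, at 179 and 47.5 in mesenchymal-like cells, and at 124 and 117 in epicardial-like cells, while GFP in endothelial-like cells stood at 16.1 and 1192 CPM. The Hand2 and GFP values of endothelial-like and mesenchymal-like cells go with the labels. Other reporter values do not follow the lineages that Cre targets: all 6 classes had less Tomato in H2CKO, for example 16.02 CPM in control and 4.57 in H2CKO cardiomyocyte-like cells, in which GFP was 10.3 and 9.48 CPM. GFP also stood at 9.08 and 37.2 CPM in epicardial-like and 14.4 and 50.3 in white blood cell-like cells. These facts of the libraries touch the ratios below. The log2 ratio of H2CKO over control had a median over all genes tested between -0.27 and -0.17 in the 5 classes. The ratio was also lower for longer genes: the median over genes of 150 kb or more was -0.63 in endothelial-like, -0.65 in mesenchymal-like, -0.63 in epicardial-like, -0.39 in cardiomyocyte-like and -0.71 in white blood cell-like cells. The summed level of the 11 erythroid markers, transcripts of red cells, was 12172 CPM in control and 46813 in H2CKO mesenchymal-like cells, 13820 and 38863 in epicardial-like, 21291 and 40327 in endothelial-like and 15647 and 20800 in cardiomyocyte-like cells. What part these have in the ratios was not tested. In whole-class sums, a lower level can be fewer cells with the transcript or less of it per cell, and shares of cells are given where they bear on this.

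Each gene had a class with its highest level, and for 8 of the 10 it was the same class in both libraries. Plxnd1, Slit2 and Robo4 were highest in endothelial-like cells, Sema3d and Slit3 in epicardial-like cells, Robo1 and Robo2 in mesenchymal-like cells and Sema3c in cardiomyocyte-like cells. For Sema3a and Plxna2 the first place changed between endothelial-like and mesenchymal-like cells, and in H2CKO the intervals of these 2 classes overlapped for both genes. The first place of Sema3c was not separated in H2CKO either. Its level there was 25.8 CPM (24.7 to 26.9) in cardiomyocyte-like and 20.7 CPM (15.1 to 27.6) in epicardial-like cells. In erythroid-like cells, which serve as the level that free RNA can give, every member was at or below 1.57 CPM.

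**Figure D1:**
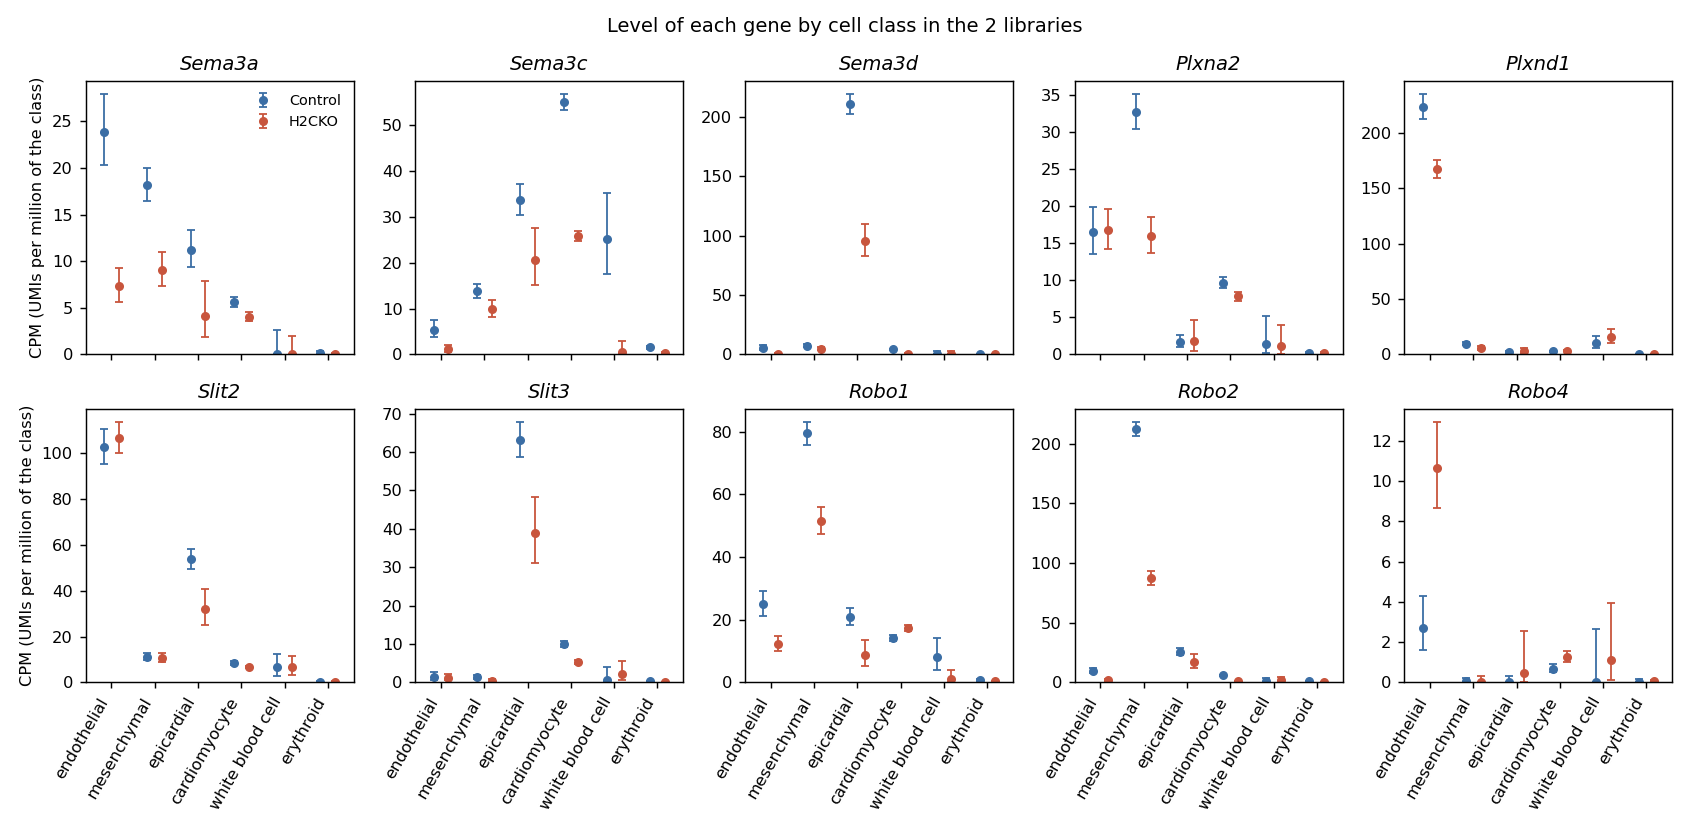
Level of each of the 10 genes (y axis, CPM of the class, from 0) in the 6 cell classes (x axis) for the control library (blue) and the H2CKO library (red), each 1 library; bars are 95% exact Poisson intervals. Plxnd1 stood at 223 and 167 CPM in endothelial-like cells and at or below 15.8 CPM in every other class.

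Among the ligands, Sema3a, the semaphorin best known for collapsing growth cones, was spread over 3 classes in the control. Its level was 23.9 CPM (20.3 to 27.9) in endothelial-like cells, 18.2 CPM in mesenchymal-like and 11.2 CPM in epicardial-like cells, with 5.60 CPM in cardiomyocyte-like cells, and each interval lay above the next. In H2CKO it was lower in all 4 classes, at 7.30 CPM (5.67 to 9.25), 9.01, 4.13 and 4.04 CPM. The endothelial-like difference rested on 159 UMIs in 89 control cells and 68 UMIs in 54 H2CKO cells, a ratio of 0.305 (0.226 to 0.408). In the same cells mesenchymal markers summed to 2783 CPM in control and 935 in H2CKO (13 of 14 tested past 2-fold lower) and endocardial markers to 2750 and 1639 CPM (5 of 8), and their part in the difference was not tested. Both endothelial-like clusters showed it. The cluster led by Emcn, Plvap and Kdr (cluster 13) had 29.9 CPM in control and 6.27 in H2CKO, and the cluster led by Stmn2, Wnt4 and Klf2 (cluster 14) had 21.2 and 9.35. Cluster 13 made up 128 of the 398 endothelial-like cells in control and 482 of 741 in H2CKO, so that class values weight the clusters differently. In cluster 13 Sema3a was the only 1 of 4 members tested that was past 2-fold lower (7.84% of all genes there were), and in cluster 14 none of 4 was (3.29%). Genes of 150 kb or more had a median log2 ratio of -0.56 in cluster 13 and -0.51 in cluster 14.

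Sema3c was highest in 1 kind of cardiomyocyte, which held 2597 of the 3645 Sema3c UMIs of the class in control and 926 of 1994 in H2CKO. In the outflow-tract-like cluster, which Rspo3, Masp1, Bmp4 and Isl1 led (353 control and 428 H2CKO cells, cluster 12), it stood at 270 CPM in control and 122 CPM in H2CKO, a ratio of 0.452 (0.419 to 0.487). A second cardiomyocyte-like cluster, led by Gal, Bmp2 and Tbx3 (cluster 15), had 82.7 CPM in control and 34.8 in H2CKO, a ratio of 0.421 (0.321 to 0.548). Past 2-fold lower were 1 of 2 members tested in cluster 12 (2.64% of all genes there) and 1 of 3 in cluster 15 (2.43%). In the 2 ventricular clusters the control and H2CKO levels were 20.6 and 17.7 CPM (cluster 2) and 14.5 and 14.95 CPM (cluster 9), and in the 2 trabecular clusters 6.63 and 8.51 CPM (cluster 6) and 21.3 and 18.98 CPM (cluster 7). Cluster 7 held 1111 control and 229 H2CKO cells of low depth (median 1528 UMIs). On the scale of log2(CPM + 5), the ratio was -1.12 in cluster 12 and -1.14 in cluster 15, against -0.17, 0.03 and 0.22 in clusters 2, 9 and 6 and -0.13 in cluster 7. Genes of 150 kb or more had a median of -0.59 in cluster 12, -0.38 in cluster 15, and -0.39, -0.47 and -0.34 in clusters 2, 9 and 6. The 7 outflow tract markers summed to 1173 CPM in control and 1116 in H2CKO cells of cluster 12, and none of the 5 that could be tested was past 2-fold. In cluster 15 they summed to 1453 and 1560 CPM, with none of 4 past 2-fold. Mesenchymal markers in cluster 12 summed to 655 CPM in control and 300.1 in H2CKO, with 9 of 11 tested past 2-fold lower. In cluster 15 they summed to 616 and 171 CPM, with 11 of 13 lower, and the erythroid markers to 7678 and 21767 CPM. The part of these markers in the Sema3c differences was not tested. GFP, the sign of Cre activity, stood at 13.9 CPM in control and 10.7 in H2CKO in cluster 12, and Hand2 at 114 and 79.4 CPM. At a coarser clustering (Leiden resolution 0.5) the class value of Sema3c was -0.20 in place of -0.96, but there the outflow tract cluster (392 control and 495 H2CKO cells) stayed unnamed and was not in the class.

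Sema3c was also present in epicardial-like cells, at 33.5 CPM in control and 20.7 in H2CKO. The value for white blood cell-like cells, 25.2 CPM in control and 0.546 in H2CKO, came from 35 UMIs of which 29 were in 1 cell, and from a single UMI in H2CKO.

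Sema3d marked epicardial-like cells, the class of the outer covering of the heart. Its level there was 211 CPM (203 to 219) in control and 95.9 CPM (83.4 to 110) in H2CKO, a ratio of 0.455 (0.393 to 0.524), and the next class, mesenchymal-like, stood at 7.26 and 4.55 CPM. Of the control epicardial-like cells 84.8% held a Sema3d UMI (median depth 13637), and of the H2CKO cells 59.0% (median depth 9226). The medians of erythroid-like cells were 18355 and 13158. With every cell thinned to 5000 UMIs (700 and 185 cells) the shares were 62.3% and 36.8%, against 0.113% and 0.0857% of erythroid-like cells. The share and the level were thus both lower in H2CKO. The 16 epicardial markers of the same cells summed to 3898 CPM in control and 3562 in H2CKO, with 2 of 15 tested past 2-fold lower.

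Slit2 was highest in endothelial-like cells and nearly level there, at 103 CPM (95.2 to 111) in control and 107 CPM (100.3 to 114) in H2CKO. The 2 endothelial-like clusters differed: in cluster 13 Slit2 stood at 80.6 CPM in control and 118 in H2CKO, a ratio of 1.47 (1.24 to 1.75), and in cluster 14 at 113 and 83.9 CPM, a ratio of 0.744 (0.638 to 0.865). The difference between these ratios was not tested. In cluster 13 mesenchymal markers summed to 1595 CPM in control and 535 in H2CKO (5 of 7 tested past 2-fold lower). Endocardial markers there summed to 1451 and 839 CPM (4 of 8 lower, 1 higher), and 3 of 6 vascular markers were higher. In cluster 14 mesenchymal markers summed to 3321 and 1737 CPM (11 of 15 lower) and endocardial markers to 3337 and 3242 (2 of 7 lower). Their part in the Slit2 ratios was not tested. Epicardial-like cells were the second class for Slit2, at 53.7 CPM in control and 32.1 in H2CKO. Within cardiomyocyte-like cells Slit2 was highest in the trabecular cluster led by Nppa (cluster 6), at 17.8 CPM in control and 18.6 in H2CKO, and it was 8.19 and 2.76 CPM in ventricular cluster 2.

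Slit3, the other Slit of these hearts, was scarcely found in endothelial-like cells (1.35 and 1.18 CPM). It was highest in epicardial-like cells, at 63.1 CPM (58.6 to 67.9) in control and 39.0 CPM (31.2 to 48.2) in H2CKO. In cardiomyocyte-like cells it stood at 10.03 and 5.26 CPM, and its level there was uneven. An atrial-like cluster led by Stard10 and Myl1 (cluster 19) had 61.0 CPM in 105 control cells and only 6 cells in H2CKO, too few to compare, and the outflow-tract-like cluster had 21.4 and 15.3 CPM. The 2 Slits therefore shared epicardial-like cells and differed in endothelial-like cells.

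**Figure D2:**
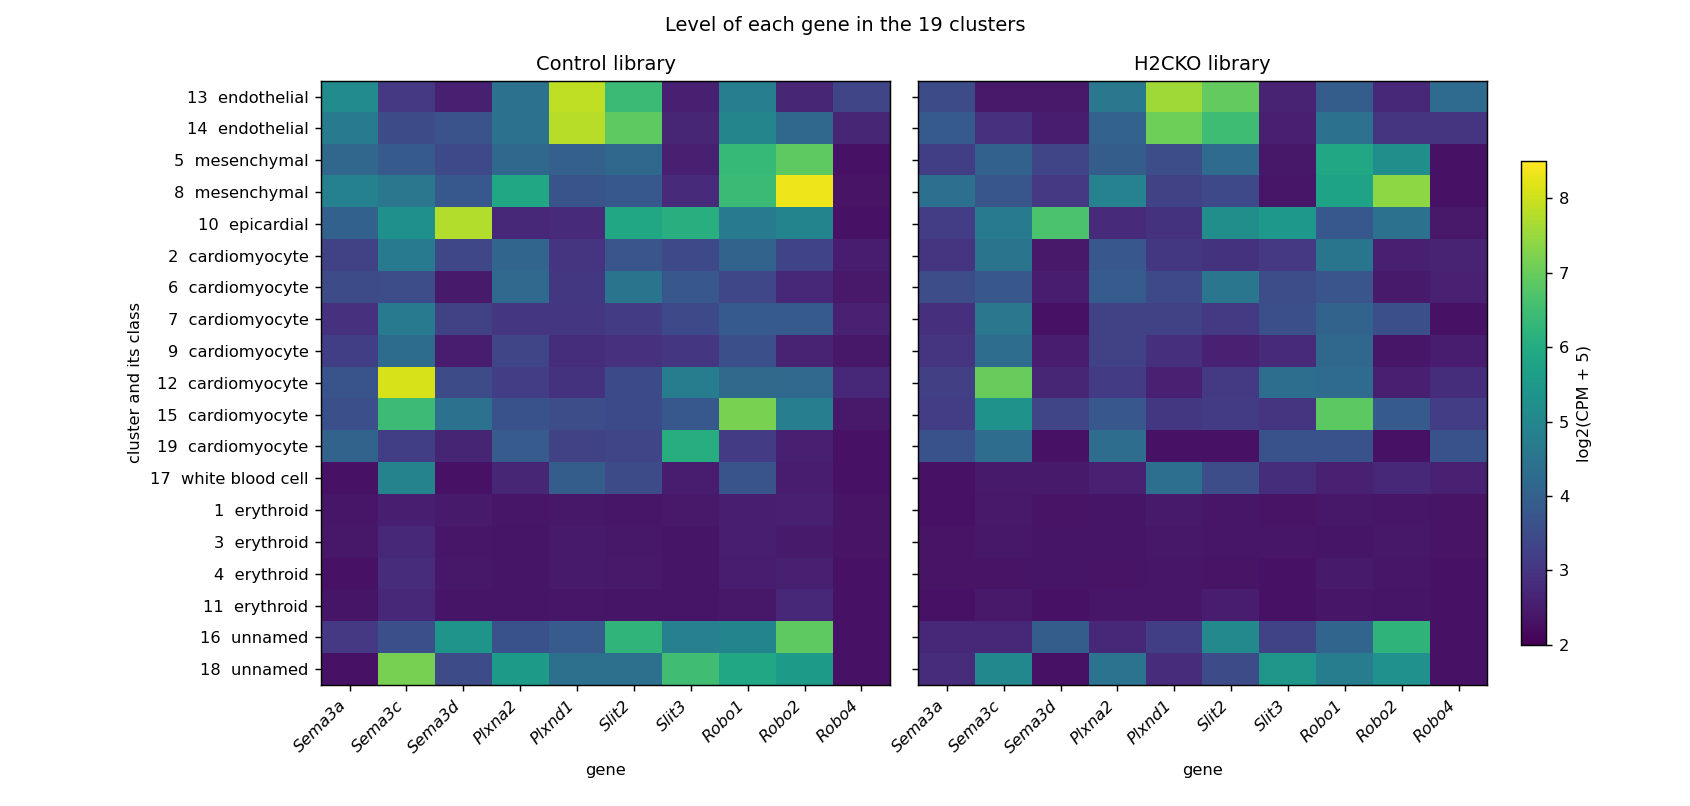
Level of each gene (columns) in the 19 clusters (rows, with the class of each) as log2(CPM + 5) on a colour scale, control library on the left and H2CKO library on the right. In the control panel the brightest cells are Plxnd1 in clusters 13 and 14, Robo2 in cluster 8, Sema3c in cluster 12 and Sema3d in cluster 10, and all columns are dark in the 4 erythroid-like clusters of both panels.

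Among the receptors, Plxnd1, the plexin of endothelium, was present in most endothelial-like cells. Its level was 223 CPM (212 to 235) in control and 167 CPM (159 to 176) in H2CKO, a ratio of 0.749 (0.697 to 0.805). The second class, white blood cell-like, stood at 10.1 and 15.8 CPM. The share of endothelial-like cells that held a Plxnd1 UMI was 83.2% in control (median depth 12780) and 74.6% in H2CKO (10139). At 5000 UMIs per cell the shares were 59.7% and 51.8%, and those of erythroid-like cells 0.227% and 0.214%. By cluster it stood at 231 and 187 CPM in cluster 13 and at 220 and 129 CPM in cluster 14.

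Plxna2, a plexin of migrating neural crest and a receptor for Sema3c, stood at 32.8 CPM (30.5 to 35.2) in control and 16.02 CPM (13.7 to 18.6) in H2CKO mesenchymal-like cells. In endothelial-like cells it was 16.5 and 16.7 CPM, a ratio of 1.01 with an interval that includes 1. Most of the mesenchymal-like signal came from the cluster led by Inhba, Tgfbi and Meox1 (cluster 8), at 54.2 and 24.3 CPM, and the cluster led by Msx1, Twist1 and Col9a3 (cluster 5) had 13.3 and 10.04 CPM. In cluster 8 Plxna2 was past 2-fold lower, 1 of 4 members tested (2.94% of all genes there). Genes of 150 kb or more had a median log2 ratio of -0.61 in that cluster. The mesenchymal-like level of H2CKO was thus below that of the control, with no overlap of the intervals, while the endothelial-like levels could not be told apart at this depth.

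Robo2 was highest in mesenchymal-like cells. It stood at 212 CPM (206 to 218) in control and 87.2 CPM (81.8 to 92.9) in H2CKO mesenchymal-like cells, a ratio of 0.411 (0.383 to 0.440). A Robo2 UMI was found in 71.7% of control and 41.8% of H2CKO mesenchymal-like cells, and at 5000 UMIs per cell in 50.2% and 28.9%, against 0.718% and 0.107% of erythroid-like cells. Both clusters were lower. Cluster 8 had 320.3 and 164 CPM, a ratio of 0.511 (0.472 to 0.553), and cluster 5 had 114 and 31.8 CPM, a ratio of 0.279 (0.240 to 0.324). Robo2 was past 2-fold lower in cluster 5, 1 of 2 members tested (5.09% of all genes there). Genes of 150 kb or more had a median log2 ratio of -0.67 in cluster 5 and -0.61 in cluster 8. These clusters also differ in the reporter and in Hand2. GFP in H2CKO stood at 1350 CPM in cluster 5 and 59.0 CPM in cluster 8. Hand2 was 175 CPM in control and 15.5 in H2CKO in cluster 5, and 183 and 91.8 in cluster 8. Robo2 also stood at 9.62 and 2.04 CPM in endothelial-like, 5.80 and 1.11 in cardiomyocyte-like and 0.952 and 0.257 in erythroid-like cells. The 18 mesenchymal markers moved with it: they summed to 7342 CPM in control and 4319 in H2CKO mesenchymal-like cells (5 of 18 tested past 2-fold lower) and to 2783 and 935 CPM in endothelial-like cells (13 of 14). By cluster they summed to 7284 and 3493 CPM in cluster 5, with 12 of 17 tested past 2-fold lower, and to 7405 and 5461 CPM in cluster 8, with none of 18. Their part in the Robo2 values was not tested.

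Robo1 was spread over 4 classes. Its level was 79.5 CPM (75.9 to 83.2) in control and 51.6 CPM (47.5 to 56.0) in H2CKO mesenchymal-like cells, 25.0 and 12.2 CPM in endothelial-like cells and 20.8 and 8.72 CPM in epicardial-like cells. In cardiomyocyte-like cells the order was the other way, 14.1 CPM in control and 17.4 CPM in H2CKO, a ratio of 1.24 (1.14 to 1.34). The ventricular clusters 2 and 9 and the trabecular cluster 6 all stood higher in H2CKO, with ratios of 1.51 (1.32 to 1.73), 1.93 (1.42 to 2.64) and 1.502 (1.12 to 2.04). In the shallow trabecular cluster 7 it stood at 9.30 and 11.9 CPM, from 35 and 10 UMIs, a ratio of 1.28 with an interval that includes 1. The highest level of any cluster was in cluster 15, the cardiomyocyte-like cells led by Gal, Bmp2 and Tbx3, at 140 CPM in control and 112 in H2CKO. The Robo1 ratio was thus below 1 in endothelial-like, mesenchymal-like and epicardial-like cells, none past 2-fold on the CPM + 5 scale, and above 1 in clusters 2, 9 and 6, where it is under the 20 CPM needed for a call, as in cardiomyocyte-like cells together. The difference between these ratios was not tested.

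Robo4 was rare, and highest in endothelial-like cells. Its 18 UMIs in 16 of 398 control endothelial-like cells gave 2.71 CPM (1.604 to 4.28), and 99 UMIs in 80 of 741 H2CKO cells gave 10.6 CPM (8.63 to 12.9), a ratio of 3.92 (2.36 to 6.89). Both values are under the 20 CPM needed for a call. The share of endothelial-like cells with a Robo4 UMI was 4.02% (16 cells) in control and 10.8% in H2CKO, and at 5000 UMIs per cell 1.35% and 2.92%, against 0.0378% and 0% of erythroid-like cells. Most H2CKO UMIs were in cluster 13, with 5.31 CPM in control and 14.5 in H2CKO, a ratio of 2.73 (1.45 to 5.65), against 1.53 and 2.90 CPM in cluster 14 (7 and 9 UMIs). In cardiomyocyte-like cells Robo4 stood at 0.678 CPM in control and 1.27 in H2CKO (45 and 98 UMIs), a ratio of 1.87 (1.30 to 2.72). Both levels were above the 0.0389 and 0.0454 CPM of erythroid-like cells. In mesenchymal-like cells Robo4 had 1 UMI in control and 0 in H2CKO, which allows up to 0.273 CPM. Within endothelial-like cells the 10 vascular markers summed to 3244 CPM in control and 2972 in H2CKO, and 3 of the 6 tested were past 2-fold higher (median log2 ratio 1.09). The 8 endocardial markers summed to 2750 and 1639 CPM, with 5 of 8 past 2-fold lower (median -1.30). Their part in the Robo4 difference was not tested.

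Between genotypes, a gene was put to the rule in a class when it reached 20 CPM and 20 UMIs in the higher library, and was called past 2-fold at a log2 ratio of CPM + 5 of at least 1 in size. Members could be tested in 15 pairs of gene and class, and 4 were past 2-fold, all lower in H2CKO. In endothelial-like cells 1 of 4 members was (Sema3a, -1.23), where 7.18% of the 6534 genes tested were past 2-fold lower and 20.2% of those of 150 kb or more. In mesenchymal-like cells it was 1 of 3 (Robo2, -1.24), against 3.23% of all and 10.8% of long genes. In epicardial-like cells it was 1 of 6 (Sema3d, -1.10), against 5.16% and 12.5%. In cardiomyocyte-like cells the only member tested, Sema3c at -0.96, was just short of the call (0.825% of all genes and 0.543% of long genes were past 2-fold lower), although its plain CPM ratio was 0.470 (0.445 to 0.496). The fourth call was Sema3c in white blood cell-like cells (7.63% of all and 23.8% of long genes), which rests on 29 UMIs of 1 cell. No member tested was past 2-fold higher. Of all genes tested, 0.826% were in endothelial-like, 0.413% in mesenchymal-like, 0.384% in epicardial-like, 0.215% in cardiomyocyte-like and 1.33% in white blood cell-like cells. A count of 1 among 3 to 6 members, most of them long, was thus set against a share of long genes of 10.8% to 20.2%.

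Read against the shift of all genes, the members spread to either side. After subtraction of the trend of the log2 ratio on gene span, whose last bin has a median span of 263 kb in endothelial-like and 269 kb in epicardial-like cells, Sema3a in endothelial-like cells stood at -0.59, Robo2 in mesenchymal-like cells at -0.58, Sema3d in epicardial-like cells at -0.47 and Sema3c in cardiomyocyte-like cells at -0.60, none past 2-fold. Plxnd1 in endothelial-like cells moved to 0.05 and Robo1 in mesenchymal-like cells to 0.08. Slit2 in endothelial-like cells, with a log2 ratio of 0.05 before, stood at 0.70. The median of the members tested was -0.60 in endothelial-like and -0.05 after the trend was taken out, -0.84 and -0.21 in mesenchymal-like, and -0.64 and -0.02 in epicardial-like cells. In epicardial-like cells Slit2 stood at -0.03 and Sema3c at 0.04 after the trend was taken out. Slit3 stood at 0.00, a value fixed by its being the median gene of its bin. The trend is held level past the median span of the last bin. Slit2 and Slit3, which are longer, were thus set against 269 kb. Before the trend was taken out, Slit2, Slit3 and Sema3c stood at -0.66, -0.63 and -0.59. The median of genes of 150 kb or more in these cells was -0.63.

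**Figure D3:**
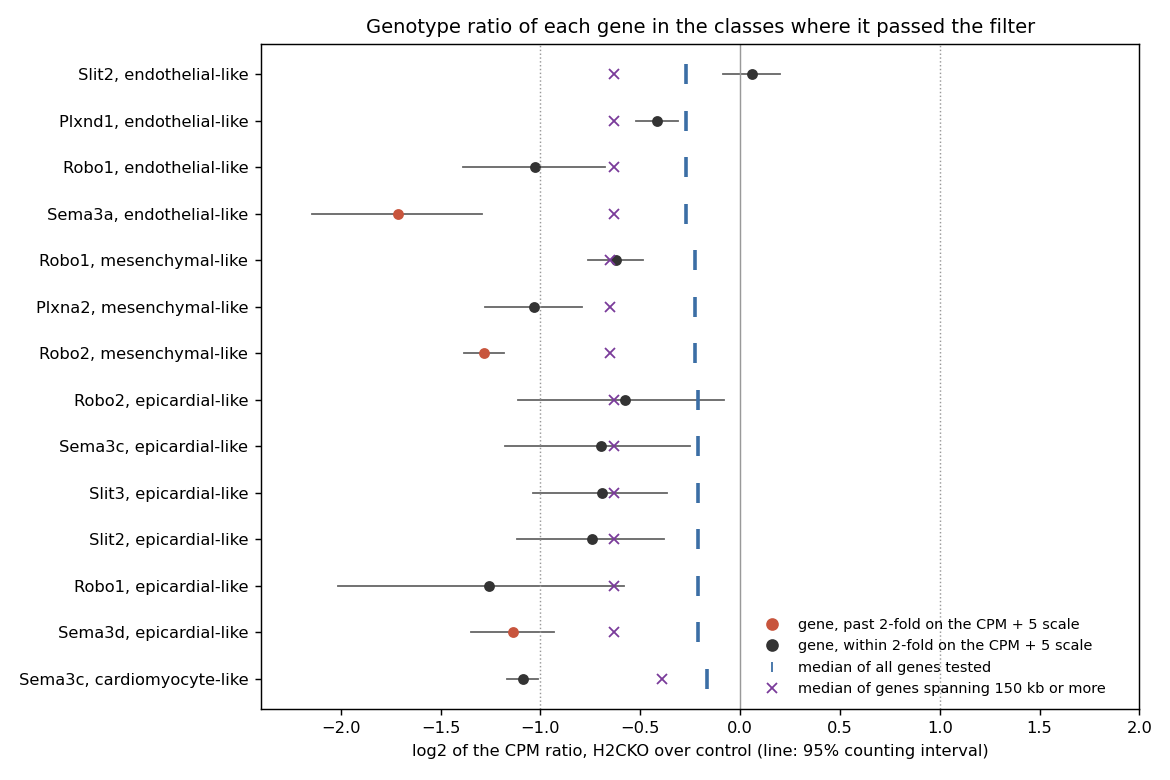
Log2 of the CPM ratio, H2CKO over control (x axis), for the 14 pairs of gene and class that passed the filter outside white blood cell-like cells (y axis), with 95% counting intervals; red marks the 3 calls past 2-fold on the CPM + 5 scale. The class medians (blue bar for all genes, purple cross for genes of 150 kb or more) are on the CPM + 5 scale, while the points are on the plain CPM scale. On the CPM + 5 scale Slit2 in endothelial-like cells, at 0.05, was above both medians of its class, -0.27 and -0.63. Sema3a in these cells, at -1.23 on that scale, was below both.

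**Figure D4:**
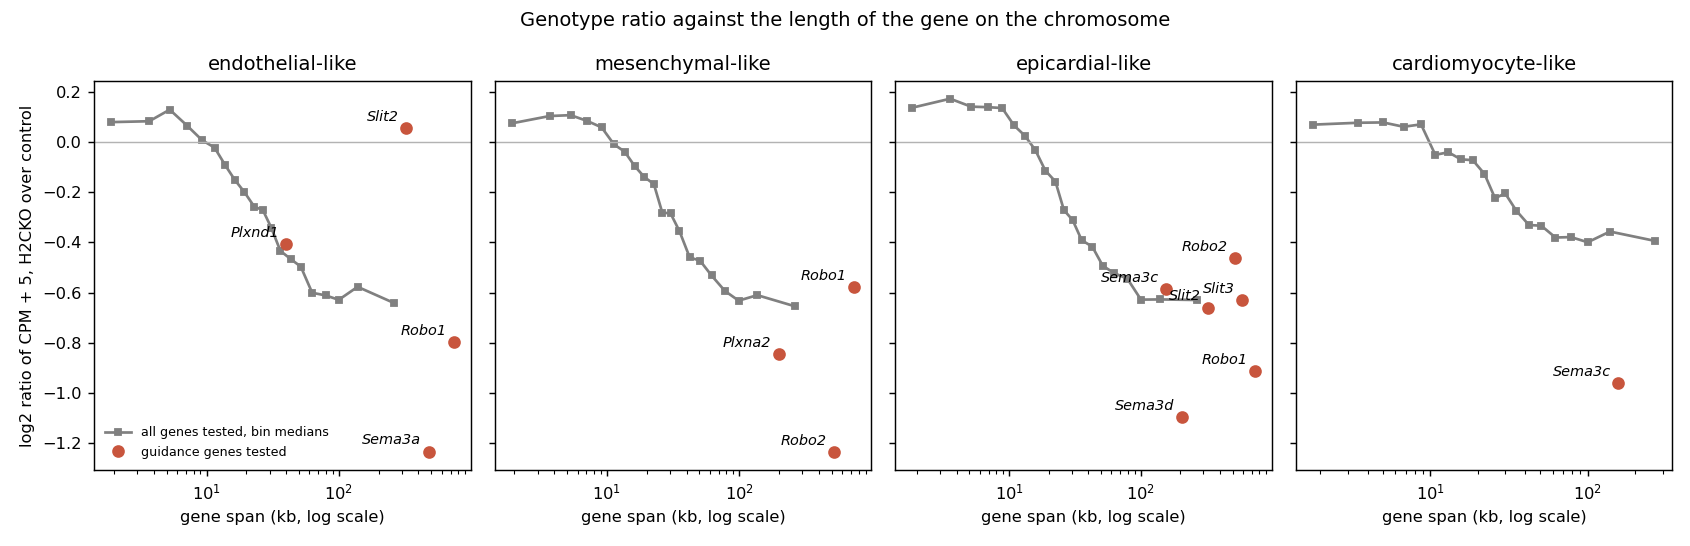
Log2 ratio of CPM + 5, H2CKO over control (y axis), against gene span in kb (x axis, log scale) in 4 classes; grey squares are medians of all genes tested in 20 bins of span, and red points are the guidance genes tested. The grey lines go down with span in all 4 classes, to about the -0.63 of genes of 150 kb or more in endothelial-like cells, and most red points lie at the long end.

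The partners of these genes were taken from a list of 64 other guidance genes. In endothelial-like cells 31 could be tested, 9 were past 2-fold lower and 1 higher, with a median of -0.80 against -0.27 for all genes. Of all genes tested there, 7.18% were past 2-fold lower and 0.826% higher, and of those of 150 kb or more 20.2% were lower. Lower were the plexins Plxna4 (39.7 CPM in control and 13.7 in H2CKO) and Plxnc1 (110 and 48.0), and the netrin receptors Unc5b (57.1 and 16.6), Unc5c (28.1 and 3.86) and Neo1 (37.9 and 12.6). After the span trend was taken out, Unc5c stood at -1.26, Unc5b, a receptor of tip cells, at -0.92, and the other 7 between -0.86 (Mical2) and -0.44 (Farp1), so that of the 9 only Unc5c stayed past 2-fold. Lower too were 4 genes from the list of intracellular partners: Mical2 (239 and 83.1), which oxidises actin, Dpysl2 (178 and 62.7), which carries semaphorin signals to microtubules, Enah (103 and 43.8), an actin elongation factor, and the exchange factor Farp1 (46.6 and 19.5). Flrt2, a membrane ligand of Unc5 receptors, was the gene past 2-fold higher, at 14.3 CPM in control and 67.0 in H2CKO (log2 ratio 1.90). In the same endothelial-like cells mesenchymal markers (13 of 14) and endocardial markers (5 of 8) were past 2-fold lower, vascular markers (3 of 6) past 2-fold higher, and the share of cluster 13 was higher, as given above; their part in the values of these genes was not tested. Elsewhere Flrt2 was lower in H2CKO or close to level, at 33.1 and 16.7 CPM in mesenchymal-like, 173 and 98.7 in epicardial-like and 13.5 and 15.8 in cardiomyocyte-like cells.

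In mesenchymal-like cells 3 of 30 list genes tested were past 2-fold lower and none higher: Sema6d (54.6 CPM in control and 15.4 in H2CKO), Unc5c (99.4 and 40.0) and Enah (368 and 173). Of all genes there 3.23% were past 2-fold lower and of long genes 10.8%. In epicardial-like cells 2 of 25 were, Unc5c (36.1 and 13.8) and Enah (84.1 and 38.6), against 5.16% of all and 12.5% of long genes. None of 20 was in cardiomyocyte-like cells (0.825% and 0.543%). In white blood cell-like cells 2 of 15 were, Sema4d (31.7 and 12.6) and Dpysl2 (82.2 and 27.9), against 7.63% and 23.8%. Markers of other cells also moved in the white blood cell-like class: cardiomyocyte markers summed to 3404 CPM in control and 1056 in H2CKO (10 of 14 tested past 2-fold lower) and megakaryocyte markers to 2308 and 794 CPM (2 of 5). At Leiden resolution 2 a megakaryocyte-like cluster of 49 control and 79 H2CKO cells stood beside a white blood cell-like one of 31 and 35. Their part in these values, and in that of Sema3c, was not tested. Medians over the tested list genes were -0.62 in mesenchymal-like, -0.55 in epicardial-like, -0.31 in cardiomyocyte-like and -0.55 in white blood cell-like cells. The co-receptor Nrp1, which binds Sema3a, Sema3c and Sema3d, stood at 177 and 154 CPM in endothelial-like, 66.9 and 40.5 in mesenchymal-like, 237 and 118 in epicardial-like and 94.2 and 65.1 in cardiomyocyte-like cells. Nrp2 reached the filter only in epicardial-like cells, at 52.9 CPM in control and 27.1 in H2CKO. Neither neuropilin was past 2-fold on the CPM + 5 scale in any class. Of the other Slit and Robo genes, Slit1 and Robo3, none reached the filter in any class.

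**Figure D5:**
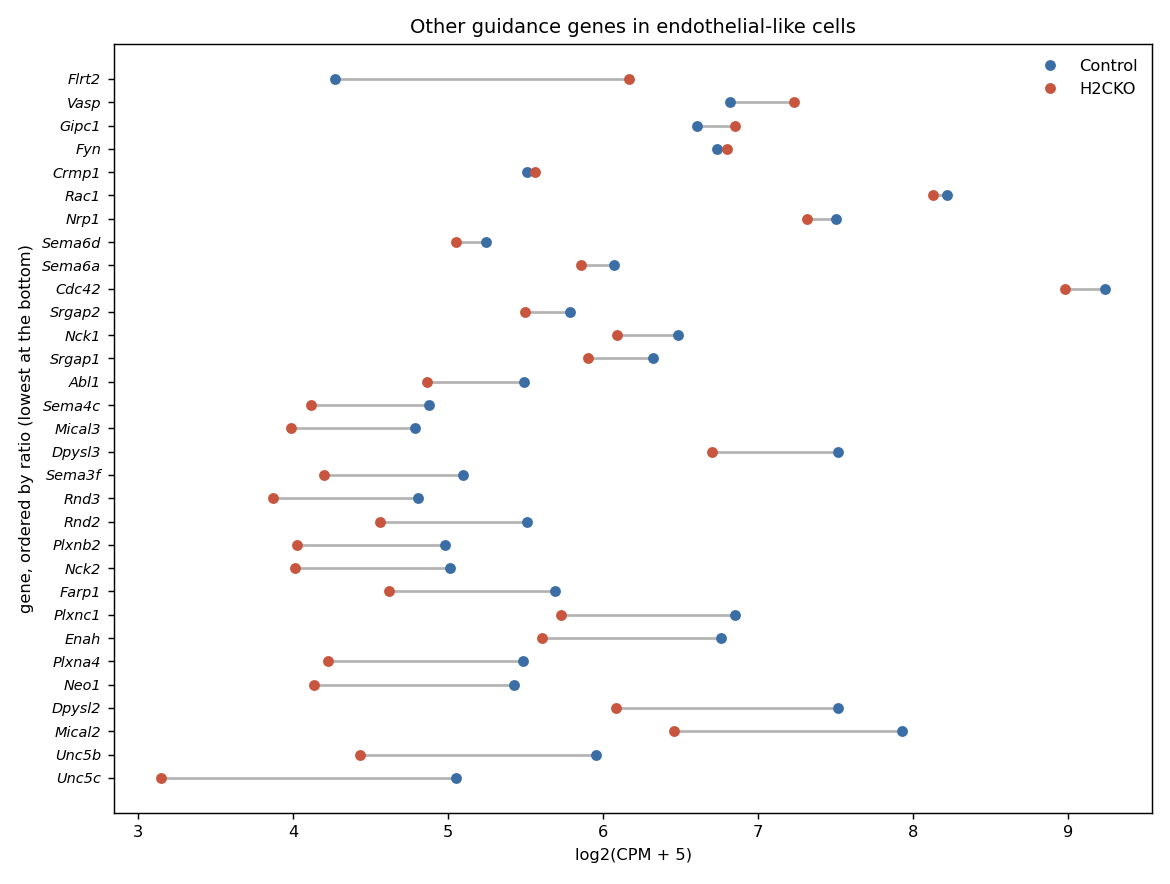
Level as log2(CPM + 5) (x axis) of the 31 guidance genes beyond the 10 members that could be tested in endothelial-like cells (y axis, ordered by the ratio of the libraries), control in blue and H2CKO in red, 1 library each, joined by a line. Flrt2 at the top is higher in H2CKO (14.3 and 67.0 CPM), and Unc5c and Unc5b at the bottom have the largest differences in the other direction.

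Across the 17 clusters with at least 50 cells in each library, the members also differed in which genes their pattern resembled. Likeness is the mean of the Pearson correlations of log2(CPM + 5) over clusters in the 2 libraries, among 8968 genes; clusters of a class share a cell type, all clusters of a library share that library, and depth differs between clusters, so these values describe patterns only. Plxnd1 was most like Fgd5 (0.98), Plvap (0.98) and Prkch (0.98), and Robo4 most like Klhl4 (0.90), Dll4 (0.90) and Ushbp1 (0.89). Slit2 was most like Ppp1r13b, Jcad and 1110032F04Rik (0.93, 0.93 and 0.92). Sema3d was most like Fmod (0.97), Kcne1l (0.96) and Ildr2 (0.96), and Slit3 most like Rpp25 (0.95), Pdpn (0.89) and Crb2 (0.88). Robo2 was most like Snai1 (0.96), Pdgfra (0.96) and Prss35 (0.95), genes of mesenchyme, and Robo1 most like Chsy1 (0.94), Rmdn2 (0.93) and Epha7 (0.92). Sema3c was most like Clu, Inha and Serpinb6b (0.92, 0.91 and 0.90), Sema3a most like Kank1, Adamts1 and Arrdc3 (0.93, 0.90 and 0.90), and Plxna2 most like Adarb1, Tspan13 and Gpr137c (0.90, 0.89 and 0.87). Among pairs of members the highest values were 0.86 for Sema3a with Plxna2, 0.80 for Plxnd1 with Slit2 and 0.78 for Sema3d with Slit3. The neighbours Robo1 and Robo2 had 0.68, and the lowest pair was Robo2 with Robo4 at -0.21.

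The unnamed clusters held members as well. The cluster led by Tcf21 and Ptn (146 control and 101 H2CKO cells) had 5 members tested, of which 3 were past 2-fold lower (6.93% of all genes there). These were Sema3d (36.3 CPM in control and 9.99 in H2CKO), Slit2 (70.8 and 28.3) and Slit3 (23.6 and 5.00), from 12, 34 and 6 UMIs in H2CKO. Epicardial markers in this cluster summed to 1009 CPM in control and 769 in H2CKO, with 5 of 9 tested past 2-fold lower, and their part in these values was not tested. Robo2 stood at 114 and 69.9 CPM there. All 5 members tested in this cluster span 150 kb or more. The median log2 ratio in it was -0.70 over genes of that span and -0.21 over all genes tested. The cluster led by Iigp1, Rgs5 and Eln held 41 control and 75 H2CKO cells, and both members tested there were past 2-fold lower (10.7% of all genes). Both span 150 kb or more, and the median log2 ratio there was -0.72 over genes of that span and 0.02 over all. Sema3c stood at 138 and 27.8 CPM, from 43 and 13 UMIs, and Slit3 at 86.5 and 38.5 CPM, from 27 and 18 UMIs. Mesenchymal markers there summed to 5975 CPM in control and 3612 in H2CKO (6 of 14 tested past 2-fold lower), endothelial markers to 868 and 451 CPM (3 of 5 lower and 1 higher) and smooth muscle markers to 2126 and 3361 CPM (1 of 4 higher), and their part was not tested.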

How the data were processed

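For each library the authors deposited a matrix of raw UMI counts (barcodes in columns and Ensembl genes in rows, per the file headers) and embedding coordinates, a score without a unit, used here only to mark a subset of barcodes. Cell Ranger 5.0.1, Seurat 4 and GRCm38.p6 are named in the submitters' processing notes, without their roles. The members and lists were chosen with earlier results of these data known. All 10 members are named, as is each list gene past 2-fold in a named class, and the 3 most similar genes per member.

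Of 22401 features, 22285 matched a symbol. Cells needed 500 genes or more and no more than 10% mitochondrial UMIs, and were kept without the 8% of each library with the highest Scrublet scores (scanpy 1.11.5), because its automatic threshold marked 1048 control cells and 0 H2CKO cells. From 2000 variable genes, leaving out the members and the 64 list genes, scaled within each library, 30 principal components and 15 neighbours per library gave 19 Leiden clusters (leidenalg 0.10.2, resolution 1), of which 2 stayed unnamed. Names come from marker lists and rest on rebuilt clusters. For each class, UMIs were added up within a library, and ratios use CPM plus 5. Intervals are 95% exact Poisson, Clopper-Pearson or conditional (scipy 1.17.1) and cover counting error only. A count of 0 allows up to 3 UMIs. The span trend is the median over 20 bins of gene span. The ratio step was tested on simulated counts. The self-test and 16 alternatives, 3 of them added after seeing the data, were run with the same steps.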

Additional observations from a re-analysis of the deposited data

Results flagged for a closer look

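Slit2 and Robo1 had counting intervals on opposite sides of 1 in different cell groups, and neither difference was tested, since each genotype has 1 library. The Slit2 ratio of H2CKO over control was 1.47 in endothelial-like cluster 13, against 0.744 in endothelial-like cluster 14, 0.599 in epicardial-like and 0.785 in cardiomyocyte-like cells. Mesenchymal and endocardial markers also moved in clusters 13 and 14, as given above, and their part was not tested. The Robo1 ratio was 1.24 in cardiomyocyte-like cells, against 0.490 in endothelial-like and 0.649 in mesenchymal-like cells, 0.447 in cluster 13 and 0.633 in cluster 14. Both genes span 150 kb or more. The median log2 ratio of such genes was -0.63 in endothelial-like, -0.65 in mesenchymal-like, -0.63 in epicardial-like and -0.39 in cardiomyocyte-like cells. With the span trend taken out, Slit2 stood at -0.03 in epicardial-like and 0.19 in cardiomyocyte-like cells. Robo1 then stood at 0.63 in cardiomyocyte-like, -0.16 in endothelial-like and 0.08 in mesenchymal-like cells.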

How the results depend on the processing

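The count of 4 gene and class pairs past 2-fold became 2 with a minimum of 1500 genes and a maximum of 5% mitochondrial UMIs per cell, 2 with cells thinned to 5000 UMIs, 2 with the mean of per-cell CPM, 2 when centred on the median gene, 1 with the span trend taken out (Sema3c in white blood cell-like cells), 7 without a filter on low values (6 lower and 1 higher) and 2 with a filter of 100 CPM. It was 3 to 6 under the other 9 alternatives, with all pairs lower. Sema3c in white blood cell-like cells turned to 0.46 after thinning. Of the members, 8 to 10 kept their top class in both libraries under the 11 alternatives that bear on it. Of 16 single values, Robo2 in mesenchymal-like cells was past 2-fold under 15 of 16 alternatives, Sema3d in epicardial-like cells under 13 and Sema3a in endothelial-like cells under 11. Sema3c in cardiomyocyte-like cells ranged from -1.06 to -0.20, the latter at Leiden resolution 0.5, where the outflow tract cluster stayed unnamed and left the class. Slit2 in endothelial-like cells ranged from -0.22 to 0.70. No paired analysis was possible because each group has 1 library. Robo4, with 18 control UMIs, and the white blood cell-like class, with 80 and 112 cells, are limited by depth.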
